A study of Homo sapiens with 6 samples.

Results

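The kinetochore and spindle checkpoint genes examined here were 47 genes chosen by symbol, with earlier results of these data known. They cover centromere proteins, the layers of the kinetochore, the chromosomal passengers and the checkpoint. The array carried 30818 named genes, of which 14887 were detected well enough to be tested, and all 47 were among these. Their transcripts were measured in MDA-MB-231, an established human triple-negative breast cancer cell line. Of the 6 samples, 3 labelled vehicle received only the solvent DMSO and 3 labelled riluzole received riluzole at 25 µM, and all 6 shared the same serum-containing RPMI medium with antibiotics. Riluzole, given to patients with amyotrophic lateral sclerosis, dampens the release of glutamate and inhibits sodium channels. The labels of the samples give 24 hours of treatment, while the title of the series calls it overnight. The question put by the series is which genes differ in expression between the treatments. The results hold for 1 cell line, and the labels do not say whether the 3 samples of a group were separate cultures, so each p-value reflects the spread among these samples alone, and that spread may be technical.

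The kinetochore is the protein assembly that builds on the centromere of each chromosome and attaches it to spindle microtubules. Its inner layer sits on nucleosomes that contain the histone variant CENPA, and its outer layer, with the NDC80 complex at its core, binds microtubules. Unattached kinetochores generate the spindle checkpoint signal, which holds back the anaphase-promoting complex, while the chromosomal passenger complex releases faulty attachments. Transcripts of many of these proteins accumulate in G2 and mitosis. In bulk samples a larger share of cells in G2 or mitosis and more transcript per cell cannot be told apart.

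Each array detected from 20516 to 20959 of its 47231 probes, and its negative controls averaged 107 to 111 signal units. The Pearson correlation of array pairs, computed across genes (no independent replicates), ran from 0.992 to 0.994 within groups and from 0.989 to 0.991 between groups. Detection matched the labelled line in part: ESR1, PGR and FOXA1, luminal markers, were detected on 0 arrays and the epithelial cadherin CDH1 on 1, whereas ERBB3 and GATA3, also listed as absent, were detected on all 6. All 6 markers listed as present in the line were detected and 0 of them passed the test. Among markers of blood, endothelial, stromal or fat cells, PTPRC, CD3E, CDH5, DCN and ADIPOQ were detected on 0 arrays, while CD14, PECAM1 and COL1A1 were detected and did not pass. The number of arrays limits the precision of every value given here. All signals below are background-corrected, quantile-normalized log2 values of the brightest detected probe of a gene, each fold change is riluzole over vehicle, and each adjusted p comes from limma with Benjamini-Hochberg adjustment over all 14887 genes, with 0.05 as the threshold. Because probes differ in their response, the level of one gene is not set against that of another.

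Of the 47 genes, 4 rose with riluzole and 0 fell. Those that rose were CENPA, the centromeric histone, HJURP, the chaperone that deposits it, and CDCA8 (borealin) and BIRC5 (survivin), which are both subunits of the chromosomal passenger complex. This is 8.51% of the members, where 1.18% of all tested genes passed in either direction, 0.752% of them higher and 0.430% lower. Because the members were chosen with earlier results of these data known, shares set beside those of all genes are no independent test. At an unadjusted p under 0.05, 15 members were higher and 0 lower, against 8.87% and 7.45% of all genes. The fold change was positive for 36 of 47 members (76.6%) and for 50.2% of all tested genes. The 36 include AURKC, which was kept only with the help of its riluzole detections. The median log2 fold change of the members was 0.12, with a range from -0.23 to 0.86, and that of all genes was 0.000747.

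The members' mean was alike on the 3 riluzole arrays. Relative to each gene's vehicle mean, the mean over the 47 members was -0.00429, 0.0313 and -0.0270 log2 units on vehicle arrays 1, 2 and 3 and 0.199, 0.208 and 0.206 on riluzole arrays 1, 2 and 3. The riluzole arrays thus lay above every vehicle array in this mean. The 3 riluzole arrays lay above the 3 vehicle arrays for 17 of 47 members (36.2%), where 11.8% of all genes did so, and below them for 2 members (4.26%), where 11.0% of all genes did. The groups overlapped for the other 28 members. The highest of the 6 values came from a riluzole array for 31 members (66.0%), against 49.1% of all genes. The median replicate SD was 0.105 log2 units for the members and 0.158 for all tested genes.

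**Figure D1:**
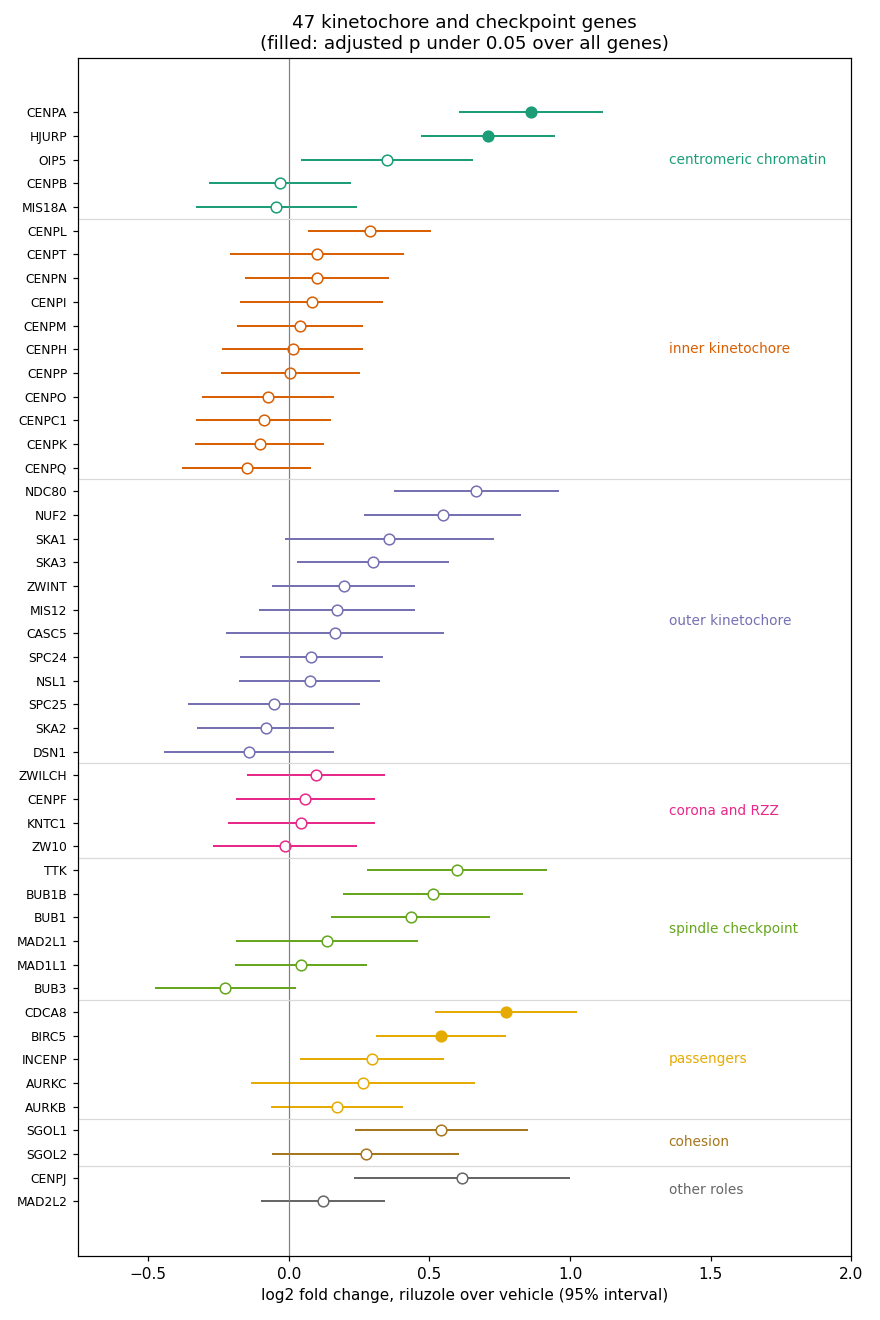
Log2 fold change, riluzole over vehicle, of the 47 genes on the horizontal axis, with the 95% interval of the limma fit as a line and genes grouped by role and coloured accordingly. Filled points mark the 4 genes past the adjusted threshold, CENPA, HJURP, CDCA8 and BIRC5, while the inner kinetochore genes lie between -0.15 and 0.29.

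**Figure D2:**
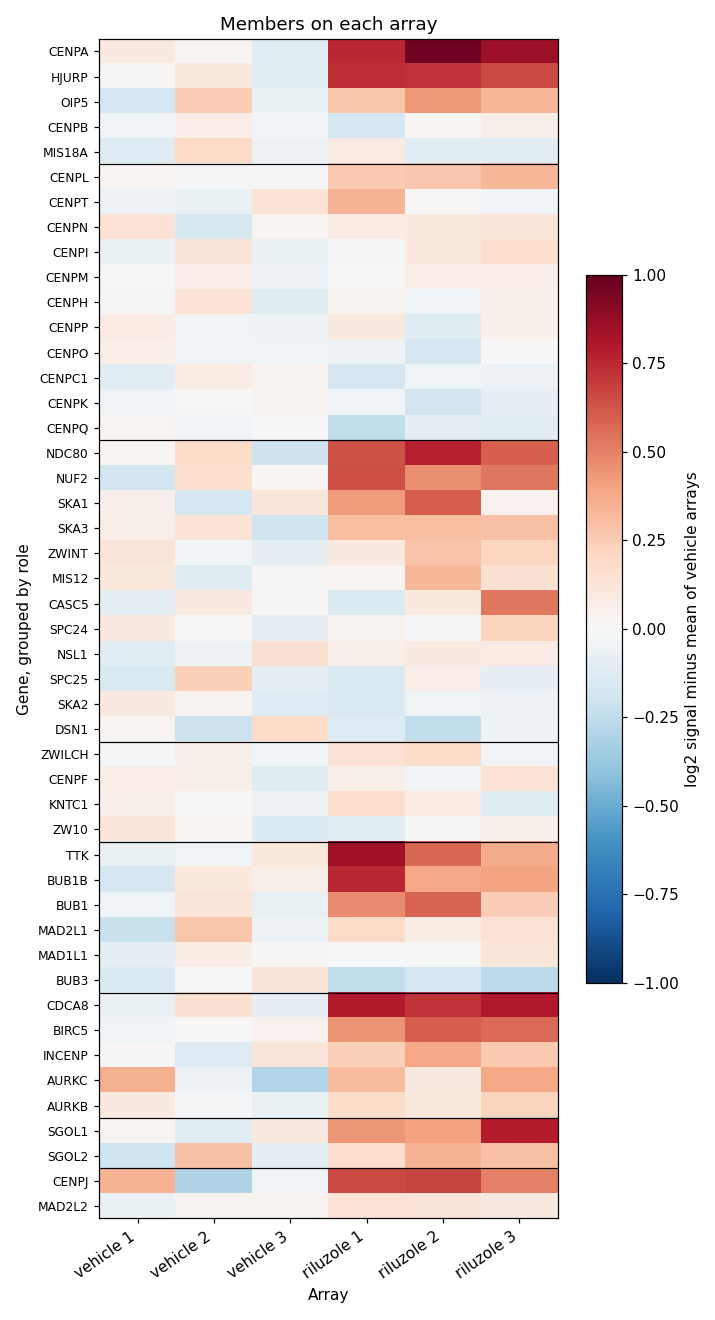
Log2 signal of each of the 47 genes on each of the 6 arrays, minus the mean of the 3 vehicle arrays, with red for higher and blue for lower and genes grouped by role as in the plot of fold changes. The red cells gather on the riluzole arrays in some genes of most roles, and BUB3 and CENPQ are the 2 genes that are blue on all 3 riluzole arrays with no overlap.

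Centromeric chromatin and its assembly factors numbered 5, of which 2 rose, with a median log2 fold change of 0.35. CENPA, the histone H3 variant that marks the centromere, read 10.61, 10.55 and 10.41 on the vehicle arrays and 11.28, 11.50 and 11.38 on the riluzole arrays. Every riluzole value was higher than every vehicle value. The means were 10.53 ± 0.10 and 11.39 ± 0.11 (SD, n = 3), a 1.82-fold rise (95% CI 1.52 to 2.16, limma adjusted p = 0.0169). A further CENPA probe gave a log2 fold change of 0.58, which did not pass when adjusted over all probes (limma adjusted p = 0.110). HJURP, which binds newly made CENPA and places it at centromeres, read 10.51, 10.60 and 10.39 with vehicle and 11.24, 11.22 and 11.16 with riluzole. Its riluzole values lay close together and above all vehicle values, a 1.63-fold rise (95% CI 1.39 to 1.92, limma adjusted p = 0.0265).

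The other 3 genes of this group did not pass. OIP5 (MIS18B) and MIS18A form the complex that prepares centromeres for new CENPA. OIP5 read 11.52, 11.95 and 11.63 with vehicle and 11.98, 12.13 and 12.03 with riluzole, groups that were separated by a narrow gap, with a log2 fold change of 0.35 (0.04 to 0.65, limma adjusted p = 0.238). A dimmer OIP5 probe gave 0.22 (limma adjusted p = 0.508 over all probes). MIS18A, listed on the array as C21orf45, had a log2 fold change of -0.04. CENPB, which binds a sequence in centromeric satellite DNA, read 12.42, 12.53 and 12.44 with vehicle and 12.29, 12.49 and 12.53 with riluzole, and the groups overlapped (log2 fold change -0.03, -0.28 to 0.22, limma adjusted p = 0.932). Whether these genes differed from CENPA and HJURP in their response was not tested.

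The chromosomal passengers had 5 genes, all with a positive fold change, of which 2 rose (median log2 fold change 0.30). AURKC, among the 5, was kept only with its riluzole detections, so the filter favoured its positive sign. CDCA8 (borealin), which helps target the complex to the centromere, read 11.51, 11.74 and 11.50 with vehicle and 12.38, 12.31 and 12.38 with riluzole. The groups were far apart, at 11.58 ± 0.13 and 12.36 ± 0.04 (SD, n = 3), a 1.71-fold rise (95% CI 1.44 to 2.03, limma adjusted p = 0.0229). BIRC5 (survivin), which reads a phosphorylated histone H3 mark, read 11.99, 12.04 and 12.07 with vehicle and 12.48, 12.64 and 12.60 with riluzole. Its groups did not overlap, and it rose 1.46-fold (95% CI 1.24 to 1.70), just under the threshold (limma adjusted p = 0.0487). A dimmer BIRC5 probe stood at 0.69 on the log2 scale (limma adjusted p = 0.0437 over all probes), while the brighter one had 0.0632 by the same count over probes.

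INCENP, the scaffold of the complex, read 9.44, 9.30 and 9.55 with vehicle and 9.67, 9.81 and 9.69 with riluzole, with no overlap and without passing the test (log2 fold change 0.30, 0.04 to 0.55, limma adjusted p = 0.226). A dimmer INCENP probe, detected on all 6 arrays, gave 0.06 (limma adjusted p = 0.891 over all probes). The kinase of the complex, AURKB, read 11.86, 11.75 and 11.70 with vehicle and 11.96, 11.88 and 11.99 with riluzole. The AURKB groups were barely separated (log2 fold change 0.17, -0.06 to 0.40, limma adjusted p = 0.453). AURKC, a related kinase used mainly in meiosis, was near background, detected on 1 vehicle array and on 3 riluzole arrays, and its groups overlapped (limma adjusted p = 0.507). The 4 subunits of the mitotic complex thus had point estimates from 1.13-fold for AURKB to 1.71-fold for CDCA8, and the difference between them was not tested.

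Most calls of the 4 genes were lost when an array was left out. In these fits 0.144% to 0.282% of all genes passed, where 1.18% did with all 6 arrays. CENPA passed without vehicle array 1 (limma adjusted p = 0.0486) or riluzole array 1 (0.0479) and missed the threshold without vehicle array 2 (0.0658) or 3 (0.0736) and without riluzole array 2 (0.0602) or 3 (0.0713). HJURP, CDCA8 and BIRC5 missed it without any one of the 6 arrays, at 0.0658 to 0.0920 for HJURP, 0.0512 to 0.0896 for CDCA8 and 0.0942 to 0.143 for BIRC5. Their log2 fold changes in these fits stayed between 0.66 and 0.76, 0.73 and 0.85, and 0.51 and 0.59.

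Promoters of 5 of these genes are shown because 3 of them belong to the genes that rose, 1 (INCENP) to a subunit of the same complex that did not pass, and 1 (CENPK) to an inner kinetochore gene near no change. Each stretch is the 140 bases just before the RefSeq start of the gene in GRCh38.p14, read 5′ to 3′ on the strand of the gene. Capitals mark TTTGAA, the core of the cell-cycle genes homology region that MuvB complexes bind, and CCAAT, the NF-Y box, each on either strand (TTCAAA and ATTGG are the reverse forms).
CENPA: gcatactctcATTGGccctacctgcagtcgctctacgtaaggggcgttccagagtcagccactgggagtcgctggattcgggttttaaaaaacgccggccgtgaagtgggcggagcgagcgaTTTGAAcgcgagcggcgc
HJURP: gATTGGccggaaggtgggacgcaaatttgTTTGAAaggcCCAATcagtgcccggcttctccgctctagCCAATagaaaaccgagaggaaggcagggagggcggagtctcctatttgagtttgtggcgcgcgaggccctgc
CDCA8: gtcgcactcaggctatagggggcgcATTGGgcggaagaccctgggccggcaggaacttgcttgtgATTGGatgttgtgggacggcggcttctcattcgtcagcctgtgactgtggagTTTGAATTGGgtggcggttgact
INCENP: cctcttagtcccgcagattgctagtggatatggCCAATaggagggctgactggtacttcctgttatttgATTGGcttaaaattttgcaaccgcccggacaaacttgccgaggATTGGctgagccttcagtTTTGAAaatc
CENPK: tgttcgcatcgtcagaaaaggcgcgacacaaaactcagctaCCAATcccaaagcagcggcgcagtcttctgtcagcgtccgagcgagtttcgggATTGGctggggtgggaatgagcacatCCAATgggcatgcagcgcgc
CENPA lies at chr2:26785916-26786055 on the plus strand, HJURP at chr2:233854536-233854675 on the minus strand, CDCA8 at chr1:37692376-37692515 on the plus strand, INCENP at chr11:62123871-62124010 on the plus strand and CENPK at chr5:65563169-65563308 on the minus strand. The TTTGAA begins 18 bases before the start in CENPA, 23 in CDCA8, 10 in INCENP and 111 in HJURP. The CENPK stretch holds 3 CCAAT boxes and no TTTGAA in this window. In CDCA8 the TTTGAA overlaps a CCAAT box in reverse form by 1 base.

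A promoter entry was found for 38 of the 47 members, which leaves out BIRC5 among the genes that rose. Within 250 bases before and 50 after the start, TTTGAA was present in 17 of 38 members (44.7%), CCAAT in 25 (65.8%) and both in 11 (28.9%). Among all 35116 promoter entries the shares were 15.2%, 34.6% and 5.9%. These shares were counted per entry, whereas the 38 members had 45 entries and a match in any entry of a gene counted. The difference in units favours the members. The 3 genes that rose and have an entry, CENPA, HJURP and CDCA8, held both. Among the 14 members with an entry whose riluzole arrays all lay above the vehicle arrays, 57.1% held TTTGAA and 64.3% CCAAT, compared with 37.5% and 66.7% of the other 24. Both motifs were present in 28.6% of the 14 and in 29.2% of the other 24. These are matches to letters and no measurement of binding.

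The outer kinetochore had 12 genes, of which 0 passed, 9 had a positive fold change and 3 had groups that did not overlap, all higher (median log2 fold change 0.17, range -0.14 to 0.67). The NDC80 complex, the main microtubule coupler, has NDC80 and NUF2 at its microtubule-binding end and SPC24 and SPC25 at its anchored end. NDC80 read 11.63, 11.79 and 11.40 with vehicle and 12.24, 12.38 and 12.21 with riluzole. All riluzole values were higher, and the adjusted p fell just short of the threshold (log2 fold change 0.67, 0.38 to 0.96, limma adjusted p = 0.0515). NUF2 read 10.71, 11.05 and 10.92 with vehicle and 11.54, 11.36 and 11.42 with riluzole, again with no overlap (log2 fold change 0.55, 0.27 to 0.82, limma adjusted p = 0.0786). A further NUF2 probe gave 0.67. Another, dim one was detected on 0 vehicle arrays and all 3 riluzole arrays. That probe was kept only through the riluzole arrays, so its higher value there adds no support for a rise.

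The anchoring subunits gave other values. SPC24 read 11.41, 11.31 and 11.24 with vehicle and 11.36, 11.30 and 11.54 with riluzole, and SPC25 read 10.53, 10.92 and 10.59 with vehicle and 10.54, 10.75 and 10.60 with riluzole. Both pairs of groups overlapped. The log2 fold change was 0.08 for SPC24 (-0.17 to 0.33, limma adjusted p = 0.786) and -0.05 for SPC25 (-0.36 to 0.25, limma adjusted p = 0.899). The fold change of NDC80 lay outside both intervals, but the difference between subunits was not tested.

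**Figure D3:**
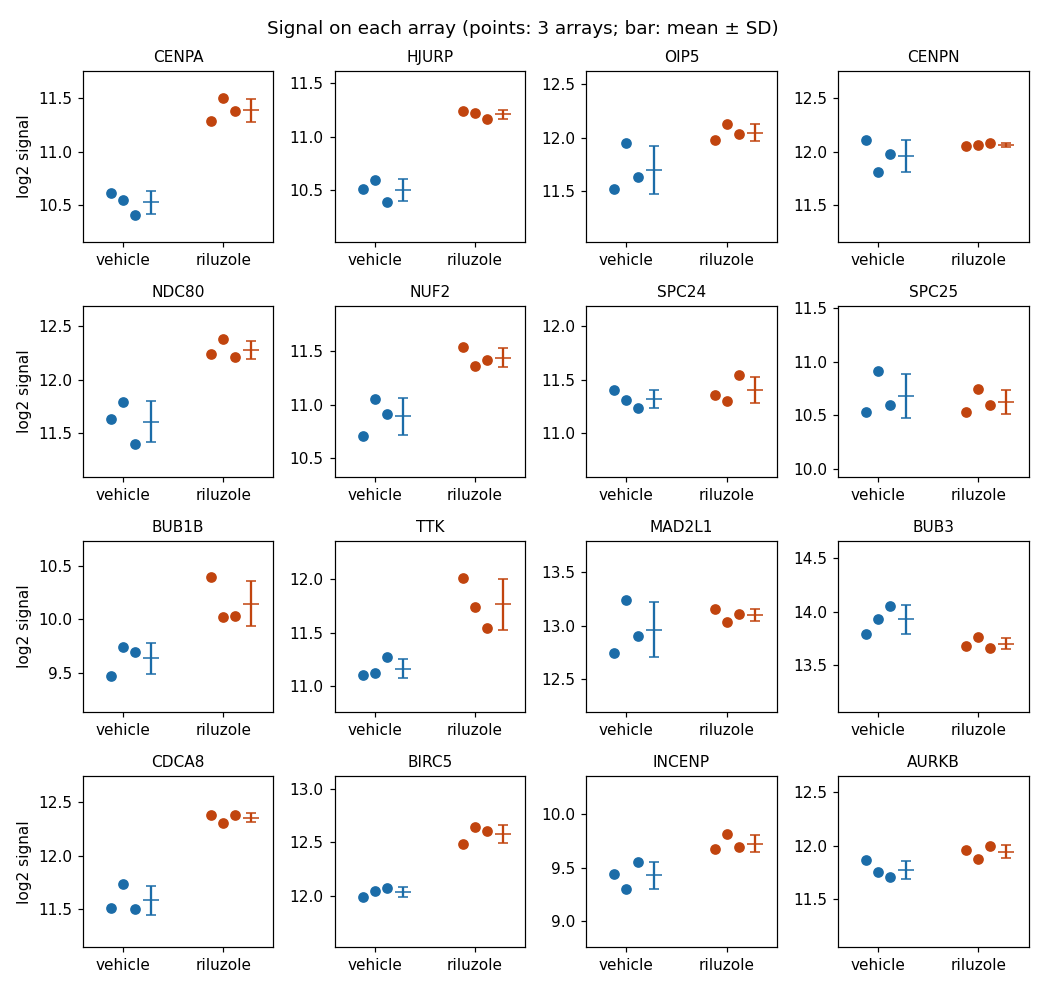
Log2 signal on each of the 3 vehicle and 3 riluzole arrays for 16 genes of 5 roles, with the mean and SD of each group as a bar, on vertical axes of equal span. The groups stand apart for CENPA, HJURP, NDC80, NUF2, TTK, BUB1B, CDCA8, BIRC5 and INCENP, are narrowly separated for OIP5 and AURKB, overlap for CENPN, SPC24, SPC25 and MAD2L1, and lie in the opposite order for BUB3.

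Among the other outer kinetochore genes, the microtubule-tracking SKA complex had log2 fold changes of 0.36 for SKA1 and 0.30 for SKA3 (C13orf3 on the array), and only SKA3 had groups that did not overlap (limma adjusted p = 0.320 and 0.250). SKA2, another subunit, read 12.17, 12.12 and 11.95 with vehicle and 11.94, 12.03 and 12.02 with riluzole and overlapped (log2 fold change -0.08, limma adjusted p = 0.771). ZWINT, which links the outer kinetochore to the RZZ complex, had a value of 0.19 on its brightest probe, 0.21 on the next and -0.49 on a dim one. CASC5 (KNL1), the docking platform of the checkpoint kinases, had a log2 fold change of 0.16, and the MIS12 complex subunits MIS12, NSL1 and DSN1 had 0.17, 0.07 and -0.14. None of these passed.

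The inner kinetochore, the constitutive network that ties CENPA nucleosomes to the outer layer, had 11 genes with a median log2 fold change of 0.01, a range from -0.15 to 0.29, and 0 past the threshold. CENPL, which with CENPN contacts the CENPA nucleosome, had the largest value, reading 9.73, 9.68 and 9.69 with vehicle and 9.96, 9.97 and 10.03 with riluzole. Its groups were tight and did not overlap, yet it did not pass (log2 fold change 0.29, 0.07 to 0.50, limma adjusted p = 0.182). CENPN read 12.11, 11.81 and 11.98 with vehicle and 12.05, 12.06 and 12.09 with riluzole, with overlap (0.10, limma adjusted p = 0.723). CENPQ, a subunit that aids chromosome alignment, was one of the 2 members with every riluzole value below every vehicle value, at 9.83, 9.77 and 9.81 with vehicle and 9.56, 9.71 and 9.69 with riluzole (log2 fold change -0.15, -0.38 to 0.08, limma adjusted p = 0.506). The other 8, CENPT, CENPI, CENPM, CENPH, CENPP, CENPO, CENPC1 (CENPC) and CENPK, lay between 0.10 and -0.10, and all had overlapping groups. The CENPC1 signal was near background, where folds are drawn toward 1.

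The corona and the RZZ complex, which recruit dynein and checkpoint proteins to unattached kinetochores, had 4 genes, 0 past the threshold, all with overlapping groups. ZWILCH read 11.20, 11.28 and 11.18 with vehicle and 11.36, 11.41 and 11.18 with riluzole, and ZW10 read 11.83, 11.73 and 11.57 with vehicle and 11.61, 11.73 and 11.76 with riluzole. In neither gene did the treatment groups separate (log2 fold change 0.10 for ZWILCH and -0.01 for ZW10). KNTC1 (ROD), the largest subunit, had a value of 0.04. CENPF, a large corona protein that builds up in G2, read 11.31, 11.29 and 11.12 with vehicle and 11.30, 11.22 and 11.38 with riluzole. Its interval ran from -0.19 to 0.30 around 0.06 (limma adjusted p = 0.851).

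Of the 6 spindle checkpoint genes 0 passed, although 3 were higher on every riluzole array (median log2 fold change 0.28, range -0.23 to 0.60). The 3 were the kinases and the pseudokinase of the pathway. TTK (MPS1), the kinase that starts the signal, read 11.10, 11.13 and 11.27 with vehicle and 12.01, 11.74 and 11.54 with riluzole. The riluzole values were spread out but all higher (log2 fold change 0.60, 0.28 to 0.91, limma adjusted p = 0.0864). BUB1, which phosphorylates histone H2A at centromeres, read 11.72, 11.88 and 11.69 with vehicle and 12.24, 12.35 and 12.01 with riluzole (0.43, 0.15 to 0.71, limma adjusted p = 0.136). BUB1B (BUBR1), a subunit of the mitotic checkpoint complex, read 9.47, 9.75 and 9.69 with vehicle and 10.39, 10.02 and 10.03 with riluzole (0.51, 0.19 to 0.83, limma adjusted p = 0.123). In both genes the lowest riluzole value stood above the highest vehicle value.

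The other checkpoint genes had log2 fold changes from -0.23 to 0.14 on their brightest probes. BUB3, the adaptor that brings BUB1 and BUB1B to KNL1, read 13.79, 13.93 and 14.06 with vehicle and 13.68, 13.76 and 13.66 with riluzole. Every riluzole value was lower, and the difference did not pass (log2 fold change -0.23, -0.47 to 0.02, limma adjusted p = 0.351). The other 3 detected BUB3 probes gave -0.50, -0.38 and -0.40, and none of the 4 passed over all probes. MAD2L1 (MAD2), which inhibits the activator CDC20, read 12.74, 13.24 and 12.91 with vehicle and 13.15, 13.04 and 13.10 with riluzole. These groups overlapped (log2 fold change 0.14, -0.19 to 0.46, limma adjusted p = 0.706), and a dimmer MAD2L1 probe gave 0.37. Its partner MAD1L1 (MAD1) had a value of 0.04.

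The shugoshins SGOL1 (SGO1) and SGOL2 (SGO2), which shield centromeric cohesin until anaphase, had positive values and did not pass. SGOL1 read 10.11, 9.97 and 10.17 with vehicle and 10.53, 10.49 and 10.87 with riluzole. The groups did not overlap (log2 fold change 0.54, 0.24 to 0.85, limma adjusted p = 0.100), and a dimmer SGOL1 probe gave 0.73, which passed over all probes (limma adjusted p = 0.0315). SGOL2 read 10.26, 10.75 and 10.37 with vehicle and 10.64, 10.81 and 10.76 with riluzole, with overlap (0.27, -0.06 to 0.60, limma adjusted p = 0.397).

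A pair of members carry the family names but act mainly elsewhere. CENPJ (CPAP), a protein of centriole growth, read 8.89, 8.24 and 8.49 with vehicle and 9.20, 9.22 and 9.05 with riluzole. The vehicle values were widely spread and all lower (log2 fold change 0.62, 0.24 to 1.00, limma adjusted p = 0.123). MAD2L2 (REV7), a subunit of DNA polymerase zeta and of the shieldin complex, read 12.19, 12.29 and 12.29 with vehicle and 12.40, 12.38 and 12.35 with riluzole (0.12, limma adjusted p = 0.586). Its groups were narrowly apart.

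Probe choice mattered for some genes. Of the 47 members, 29 had 1 detected probe and 18 had more than 1. All detected probes shared a sign in 13 of these 18 and differed in sign in 5, namely CENPM, CENPO, MIS18A, SKA2 and ZWINT. The 13 include NUF2 and NSL1, each with a dim probe that was kept only with its riluzole detections. The filter favoured a higher riluzole value in those probes. For CENPO, of the inner kinetochore, the brightest probe gave -0.07 and a dim one 0.45. Neither CENPO probe passed over all probes.

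**Figure D4:**
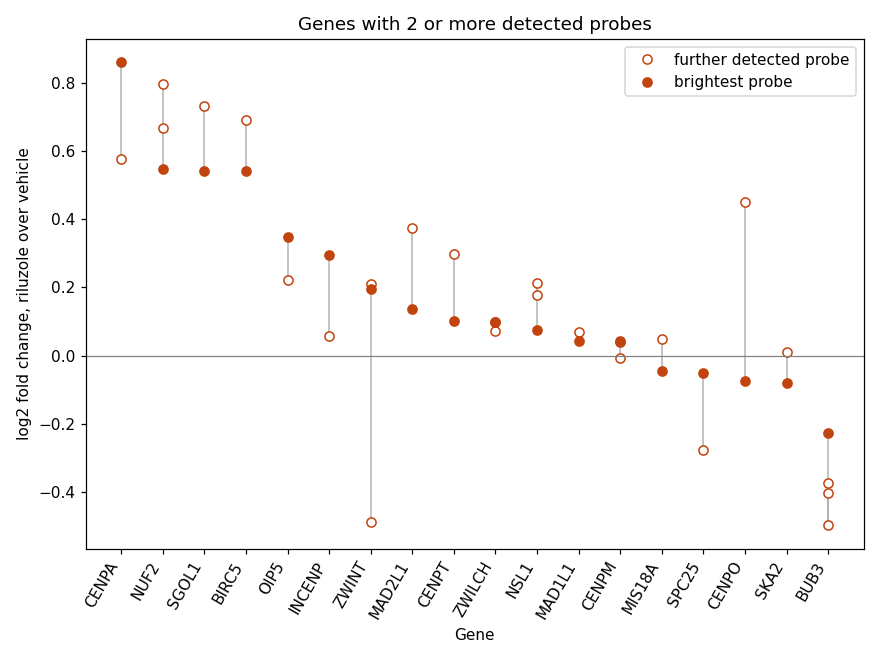
Log2 fold change, riluzole over vehicle, of every detected probe of the 18 genes with more than 1, with the brightest probe filled and further probes open. All probes of CENPA, NUF2, SGOL1 and BIRC5 lie above 0 and all 4 of BUB3 below it, whereas those of ZWINT and CENPO lie on both sides. The dimmest NUF2 probe was kept only through its detection on the riluzole arrays.

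Beyond the 47 genes, a list of 36 other kinetochore and checkpoint genes had 35 tested members, CDC27 not being detected well enough. Of these 4 rose and 0 fell, with 21 positive and 14 negative values and a median log2 fold change of 0.03. Among all tested genes 0.752% rose, 0.430% fell and 50.2% had a positive value. This list was also chosen with earlier results known, so the shares are a description only. CENPE, the corona kinesin that moves chromosomes to the spindle equator, read 11.05, 11.14 and 11.05 with vehicle and 11.69, 11.61 and 11.57 with riluzole. It was well separated and rose 1.46-fold (95% CI 1.25 to 1.70, limma adjusted p = 0.0468), with a further probe at 0.62 on the log2 scale. When adjusted over all probes, neither CENPE probe passed (limma adjusted p = 0.0605 and 0.0793). PLK1, a mitotic kinase active at kinetochores, rose 1.71-fold (limma adjusted p = 0.0342). The microtubule depolymerase KIF2C rose 1.64-fold (limma adjusted p = 0.0354) and the plus-end kinesin KIF18A 1.67-fold (0.0458). Over all probes PLK1 (limma adjusted p = 0.0431) and KIF2C (0.0451) passed, and KIF18A (0.0566) did not. CDC20, the checkpoint's target, stood at 0.53 on the log2 scale (limma adjusted p = 0.109) and TRIP13, which recycles MAD2, 0.33 (0.164).

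General cell cycle markers moved on the same arrays. Their lists, too, were chosen with earlier results of these data known, so the shares below are a description only. Of 14 general G2 and mitosis markers 5 rose and 0 fell, with 11 positive values and a median log2 fold change of 0.48. The shares of all tested genes were 0.752% higher, 0.430% lower and 50.2% positive. CCNB1, the mitotic cyclin, rose 1.82-fold (limma adjusted p = 0.0168), the spindle kinase AURKA 1.59-fold (0.0356, further probe 0.60 on the log2 scale) and the CDK1-activating phosphatase CDC25C 1.64-fold (0.0391, further probes 0.66 and 0.59). Other markers of the list had negative values, with -0.09 for CDK1, -0.08 for UBE2C and -0.18 for TOP2A, and did not pass. Of 14 S phase markers 2 fell, 0 rose and 0 had a positive value (median -0.42), beside the same shares of all genes. These were CCNE2, a cyclin of S phase entry, which was 1.78-fold lower (limma adjusted p = 0.0179), and the helicase subunit MCM6, which was 1.60-fold lower (0.0220), while MCM2 had a log2 fold change of -0.52 (0.0733). The part of these shifts in the values of the kinetochore genes was not tested.

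The number of members called moved with the processing, and the direction of those called did not. CENPA, HJURP and CDCA8 passed in 8 of 9 other settings, all but the fit with the replicate number as a block, and BIRC5 passed in 5 of 9. NDC80 passed in 5 of these settings, NUF2 and SGOL1 in 4, TTK in 3, and BUB1, BUB1B and CENPJ in 2. The count was 11 members without background correction, where 3.75% of all genes passed, and 11 where the variance model had an intensity trend and robust settings, in which 4.44% did. It was 8 with stricter detection (3.03% of all genes), 7 with the mean of a gene's probes (1.32%) and 0 with the block (0.148%). For NUF2 the mean of probes includes the probe kept only through the riluzole arrays. In each of these settings 0 members were lower.

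**Figure D5:**
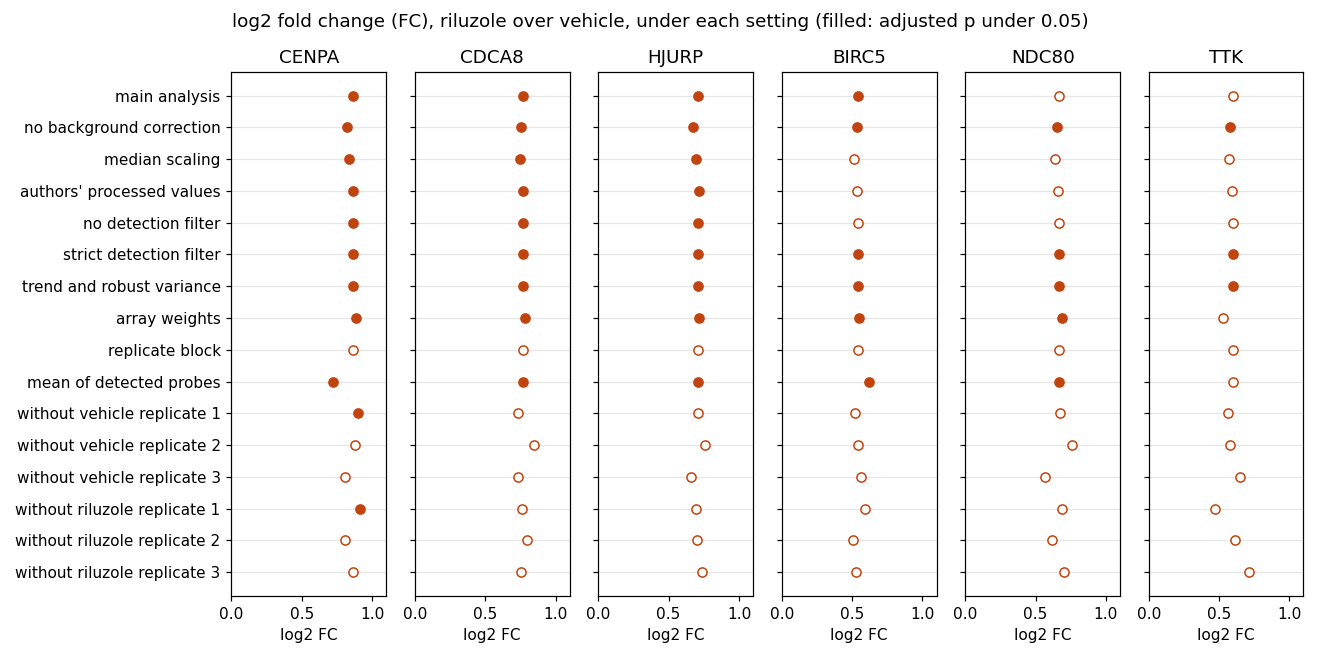
Log2 fold change, riluzole over vehicle, of 6 genes on the horizontal axes under the main analysis, the 9 other settings and the 6 fits with an array left out, listed on the vertical axis. Filled points have an adjusted p under 0.05, open ones do not. All points lie above 0, and the fits with an array left out are open except for CENPA without vehicle array 1 or riluzole array 1.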

How the data were processed

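RNA of 3 vehicle and 3 riluzole samples was read on single-colour Illumina bead arrays, 1 array per sample. Per the file headers, the authors deposited an average bead signal intensity and a detection p-value per probe, neither background-subtracted nor normalized. They also deposited processed intensity values, whose making is not stated in those headers or the labels.

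With limma 3.58.1 in R 4.3.3, neqc subtracted background (normexp, guided by detection p-values), then applied an offset of 16, quantile normalization and log2. The offset draws folds of dim probes toward 1. Control rows (979) were left out. Probes with detection p under 0.05 on at least 3 of 6 arrays were kept, 72 of the 82 for the members, and the brightest stood for its gene. Group was the only term in lmFit and eBayes. Only the lmFit and eBayes step was tested on simulated data, made as gene-level log2 values. Background correction, normalization, filtering and probe choice were not tested in this way.

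The members, roles and lists were chosen with earlier results of these data known. All members are named. Values on each array are given for members past the threshold, the largest and brightest of each role, and AURKB, BUB1, BUB1B, MAD2L1, NDC80, BIRC5, CENPF and CENPA, with others added after values were seen. Other lists give calls, CENPE, CDC20, TRIP13 and PLK1, or up to 3 members with the smallest p, with CDK1, UBE2C and TOP2A added after their values were seen. Alternatives changed background correction, normalization, starting values (the authors' values, floored at 16), detection filter, variance model, array weights, replicate block, probe summary and arrays used. Array names were matched to RefSeq symbols of GRCh38.p14.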

Additional observations from a re-analysis of the deposited data

How the results depend on the processing

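Of the 47 members, 4 were higher in the main analysis and 0 lower. The count of higher members was 11 without background correction, 11 with an intensity trend and robust variance, 8 with detection p under 0.01 on all 6 arrays, which tested 45 members, and 7 with the mean of detected probes. It was 3 with median scaling (1.07% of all genes passed), the authors' processed values (0.631%) or no detection filter (0.227%). With array weights it was 5 (1.47%). It ran from 0 to 1 with each array left out, where fewer samples enter the fit and 0.144% to 0.282% of all genes passed. With the replicate number as a block it was 0, with 13 members at an unadjusted p under 0.05 and 22 of all genes called. Same-numbered samples had correlations of deviations of -0.146, -0.105 and 0.00115, and other pairs ran from -0.0599 to 0.150. With 3 arrays per group, each centred on its group mean, these values cannot show whether the numbers pair the samples. The labels do not say so either. Lower members were 0 throughout. The median log2 fold change, 0.122 in the main analysis, was 0.0895 with median scaling, which moved the median of all genes to -0.0162, and 0.165 with the mean of probes. Some signs turned, all of members that did not pass. With median scaling CENPH had -0.00645 and CENPP -0.0213, and CENPP had -0.00817 with the authors' processed values. ZW10 had 0.0206 with array weights, and with the mean of probes CENPO had 0.188, ZWINT -0.0288 and MIS18A 0.00187. With an array left out, ZW10 ran from -0.0832 to 0.0461, MAD1L1 from -7.11e-05 to 0.0806, CENPB from -0.0775 to 0.0418, CENPP from -0.0370 to 0.0689, SPC25 from -0.128 to 0.0657, MIS18A from -0.110 to 0.0519, CENPF from -0.00144 to 0.0977, CENPH from -0.0489 to 0.0820, CENPT from -0.0196 to 0.169, KNTC1 from -0.0198 to 0.129 and CASC5 from -0.0166 to 0.315. The cause of these shifts was not tested. Over members and settings, 385 values kept direction and call, 22 gained a call, 7 lost one and 7 turned. With an array left out, 243 kept both, 22 lost a call and 17 turned. Signal over background limits AURKC, which was detected on 1 vehicle array. It also limits CENPC1, whose raw signal averaged 146 with vehicle and 143 with riluzole. AURKC and CENPC1 were dropped by the stricter detection filter.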
